A study of Rattus norvegicus with 8 samples.

Results

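The genes described here are those of glycine receptors and glycine transporters in the rat spinal cord: the receptor subunits Glra1, Glra2, Glra3 and Glrb, the anchoring protein gephyrin (Gphn), and the transporters Slc6a5 (GlyT2) and Slc6a9 (GlyT1). The members were chosen by gene name, and a probe belonged to a member when the array annotation gave that name and the spot was no control spot. All 7 genes were on the array, out of 16351 gene symbols, with 10 of its 30367 probes. The samples were lumbar L6S1 spinal cord of male Wistar rats aged 12 weeks, of which 4 underwent repeated water avoidance (WA) stress and 4 were controls, with 1 Agilent 1-colour array per rat. Stressed rats were kept on a small platform in a cage of water in a daily session for 10 days, and the cord was taken 24 h after the last session. The labels call the other group control and say no more of its handling. The labels name no transgene and no drug in either group, and the tissue was a whole cord segment, without separation of dorsal and ventral horn.

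Glycine is the main fast inhibitory transmitter of the spinal cord beside GABA. Its receptor is a chloride channel built of alpha and beta subunits, and the beta subunit binds gephyrin, which holds the channel at the synapse. Slc6a5 takes glycine back into glycinergic terminals for loading into vesicles, and Slc6a9, found mainly on astrocytes, clears glycine from the synapse. In the dorsal horn this transmission limits the passage of pain signals, and in the ventral horn it limits motor neuron firing.

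Each array probe was a DNA strand of 60 bases, and the probe sequences are shown because the values of a gene are those of the stretch its probe matches, and probes of the same gene gave different values. Positions are those of the array files on the rn4 assembly, and the exon or UTR they lie in was not analysed here. The single probes of Glra1 (NM_013133, chr10:40923510-40923569, minus strand, from base 1422 of the transcript), Glra3 (NM_053724, chr16:37851188-37851247, plus strand, from base 1379) and Glrb (NM_053296, chr2:172451970-172452029, minus strand, from base 1268) are given whole, 5′ to 3′.
Glra1: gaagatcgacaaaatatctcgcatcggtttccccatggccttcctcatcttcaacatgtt
Glra3: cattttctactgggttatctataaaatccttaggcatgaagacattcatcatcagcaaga
Glrb: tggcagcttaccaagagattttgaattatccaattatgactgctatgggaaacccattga

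The probe of Glra2 (NM_012568, chrX:49977287-49977346, plus strand, from base 2236) is shown because it ended in a simple repeat. A run of 16 CA units began at base 29 of the probe and covered its last 32 bases, and the last 30 bases are printed with the repeat in capitals.
Glra2: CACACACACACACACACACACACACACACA

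Gphn, Slc6a5 and Slc6a9 each had a pair of probes, 1 nearer the 5′ end of the transcript and 1 nearer the 3′ end. The 5′ probes of Gphn (NM_022865, chr6:101301993-101302052, from base 2255), Slc6a5 (NM_203334, chr1:99786137-99786196, from base 2445) and Slc6a9 (NM_053818, chr5:138333457-138333516, from base 1836) are given whole, and of the 3′ probes at bases 2419, 6877 and 2575 the first 30 bases are given. These 3′ probes lay at chr6:101302157-101302216, chr1:99793114-99793173 and chr5:138334287-138334346.
Gphn at base 2255: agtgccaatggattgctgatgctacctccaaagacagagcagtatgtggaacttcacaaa
Gphn at base 2419: aacggcacagctagtttttctgatctggat
Slc6a5 at base 2445: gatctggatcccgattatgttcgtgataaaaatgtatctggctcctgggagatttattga
Slc6a5 at base 6877: gcttattatatactgtgcattattcattta
Slc6a9 at base 1836: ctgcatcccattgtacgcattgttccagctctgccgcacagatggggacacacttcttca
Slc6a9 at base 2575: gtacagtgttacttgttggactgcaccact

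Levels are log2 processed signals less the 75th percentile of the same array, so that 0 stands for the signal that 75% of its spots do not exceed. The level of a probe also depends on its sequence, and levels were therefore compared between rats and not between probes. The arrays had 22998 to 24064 probes well above background. The 75th percentile itself averaged 2156 ± 228 for the controls and 1871 ± 87.1 for the stressed group (SD, n = 4 each, exact permutation p = 0.114). Control rat 2 stood apart from the other controls. The 5′ minus 3′ difference of an array compares a 5′ probe with a 3′ probe of the same transcript on the log2 scale. It is the median over 1781 transcripts other than the members. Values were centred over the 8 arrays, for each transcript and again for the median, so that they are relative to the other arrays. The difference was 0.22 in control rat 2 and -0.31, -0.30 and -0.18 in control rats 1, 3 and 4. In stressed rats 1 to 4 it was 0.16, 0.15, 0.17 and 0.09, so that control rat 2 lay with the stressed rats and beyond them. All 8 arrays were on 1 slide, with stressed rats in row 1 and control rats in row 2, and row and group cannot be told apart. Of the caudal cord markers, Hoxa10 was between 0.28 and 0.36 in control rats, and it was 0.52, -0.33, -3.46 and 0.44 in stressed rats 1 to 4. Hoxd10 was also lowest in stressed rat 3, at 0.44 against 1.43 to 2.27 in the other 7 rats. Results are given with and without control rat 2, and without stressed rat 3 where stated.

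All 10 probes were well above background on all 8 arrays and passed the filter on low values. None of the 7 genes passed FDR below 0.1 between stressed and control rats (limma, Benjamini-Hochberg adjusted p between 0.224 and 0.987), while 3.74% of all 23677 tested probes did. At an unadjusted p under 0.05 the count was 2 of 10 probes, beside 20.3% of all tested probes. In no probe did the stressed rats lie entirely on 1 side of the control rats, which was the case in 12.1% of all tested probes. The level was higher in stressed rats on average at 9 of 10 probes (59.6% of all tested probes), and the median difference of the 10 probes was 0.23 on the log2 scale against 0.06 for all tested probes. Without control rat 2 these medians were 0.36 and 0.09, and with 1 probe per gene symbol the median of the members was 0.14. With 4 rats per group the exact permutation test allowed no p below 0.0286. As the tissue was a whole segment, fewer cells of a type and less RNA per cell cannot be told apart.

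**Figure D1:**
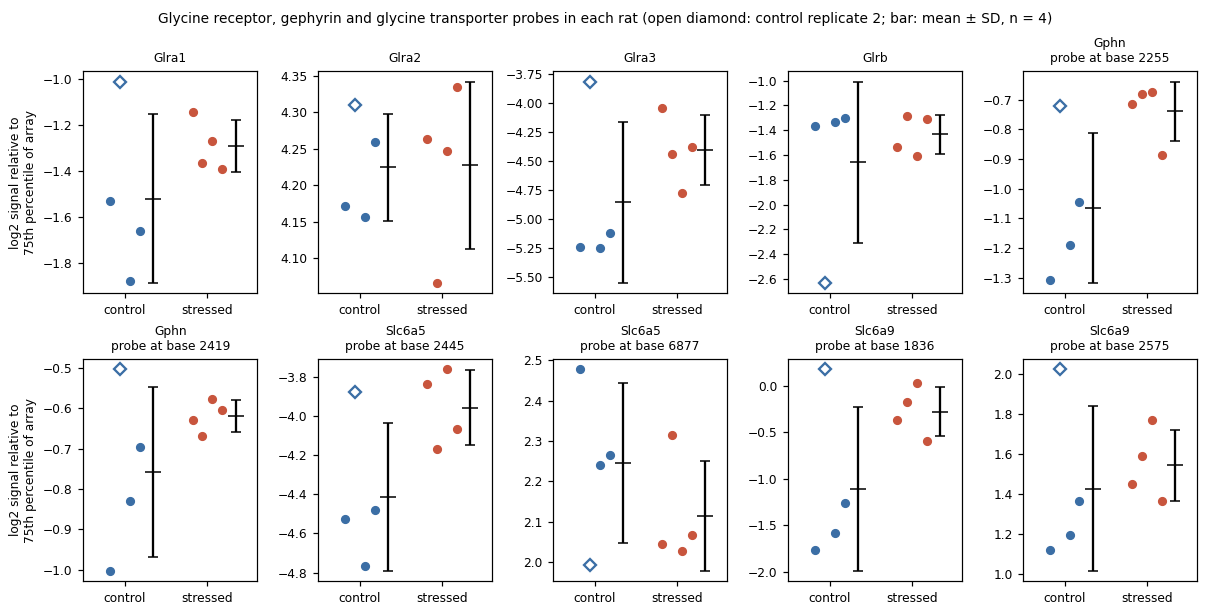
Log2 signal less the array's 75th percentile (y axis, scale set for each panel) for the 10 probes in each of 4 control and 4 stressed rats. Points are rats, the open diamond is control rat 2, and bars are the mean ± SD (n = 4). At all 10 probes control rat 2 was the highest or the lowest of the controls.

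Glra1 encodes the alpha subunit that prevails in the adult spinal cord. Its level in control rats 1 to 4 was -1.53, -1.01, -1.88 and -1.66, and in stressed rats 1 to 4 it was -1.14, -1.36, -1.27 and -1.39. Stressed rats lay close together and above control rats 1, 3 and 4, and control rat 2 was the highest of all 8. Controls averaged -1.52 ± 0.37 and stressed rats -1.29 ± 0.11 (SD, n = 4 each). The difference of 0.23 ± 0.18 (SE, 95% confidence interval -0.18 to 0.64) did not pass the threshold (limma adjusted p = 0.479, exact permutation p = 0.257). Without control rat 2 it was 0.40 with a limma adjusted p of 0.0262, in a fit in which 42.4% of all tested probes passed.

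Glra2 encodes the alpha subunit best known from the developing nervous system. Control rats 1 to 4 had levels of 4.17, 4.31, 4.16 and 4.26, and stressed rats 1 to 4 had levels of 4.26, 4.07, 4.25 and 4.33. The groups overlapped fully, and the difference was 0.00 with a 95% confidence interval of -0.19 to 0.19 (limma adjusted p = 0.987). The processed signal of this probe was between 31232 and 44734 on the 8 arrays. On the array there were 13 other probes with a run of at least 10 CA units. All 13 were well above background on all 8 arrays, as were 22035 of the 30367 probes. The median signal of each of the 13 over the arrays lay between 3947 and 94801, against a median of 189 over all probes. Their differences between stressed and control rats lay between -0.10 and 0.09. The share of the Glra2 signal that came from other transcripts with the repeat was not tested.

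Glra3 encodes the alpha subunit found in the superficial dorsal horn, where it has been tied to inflammatory pain. Its level was -5.24, -3.82, -5.25 and -5.12 in control rats 1 to 4 and -4.04, -4.44, -4.77 and -4.38 in stressed rats 1 to 4. The signal was faint, between 56.5 and 131 units. All stressed rats lay above control rats 1, 3 and 4 and below control rat 2. The difference was 0.45 ± 0.33 (SE, 95% confidence interval -0.33 to 1.22, limma adjusted p = 0.463, exact permutation p = 0.314). Without control rat 2 the difference was 0.79 with a limma adjusted p of 0.0108, where 42.4% of all tested probes passed. A further alpha subunit, Glra4, had a probe that was well above background on none of the 8 arrays. Its probe matched that of Glra3 at 38 of 59 aligned bases (64.4%), the closest pair among the probes of the 5 subunits.

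Glrb encodes the beta subunit, through which the receptor is held by gephyrin. Levels in control rats 1 to 4 were -1.37, -2.64, -1.33 and -1.30, and levels in stressed rats 1 to 4 were -1.53, -1.29, -1.60 and -1.31. Here control rat 2 was the lowest of all 8, and the other 3 controls lay within the range of the stressed rats. The difference was 0.22 ± 0.30 (SE, 95% confidence interval -0.46 to 0.91, limma adjusted p = 0.680, exact permutation p = 0.771). Without control rat 2 the sign turned, and the difference was -0.10 with a 95% confidence interval of -0.32 to 0.12 (limma adjusted p = 0.444).

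Gephyrin forms the scaffold under inhibitory synapses and also takes part in the synthesis of the molybdenum cofactor. The probe at base 2255 had levels of -1.31, -0.72, -1.19 and -1.05 in control rats 1 to 4 and of -0.71, -0.68, -0.67 and -0.89 in stressed rats 1 to 4. The groups overlapped only through control rat 2. The difference of 0.33 ± 0.13 (SE, 95% confidence interval 0.02 to 0.63) had an unadjusted limma p of 0.0374 and an adjusted p of 0.224 (exact permutation p = 0.0571). At base 2419 the levels were -1.003, -0.50, -0.83 and -0.70 in control rats and -0.63, -0.67, -0.58 and -0.60 in stressed rats, and the difference was 0.14 ± 0.11 (SE, limma adjusted p = 0.484). Both probes had stressed rats above control rats 1, 3 and 4.

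Slc6a5 is the neuronal transporter and a marker of glycinergic neurons, and its probes gave differences of opposite sign. The probe at base 2445 was faint, with levels of -4.53, -3.88, -4.77 and -4.48 in control rats 1 to 4 and of -3.84, -4.17, -3.76 and -4.07 in stressed rats 1 to 4. Its difference was 0.46 ± 0.19 (SE, 95% confidence interval 0.01 to 0.90, unadjusted limma p = 0.0465, adjusted p = 0.241, exact permutation p = 0.0857). The probe at base 6877 had levels of 2.48, 1.99, 2.24 and 2.26 in control rats and of 2.04, 2.32, 2.03 and 2.07 in stressed rats. Its difference was -0.13 ± 0.12 (SE, 95% confidence interval -0.41 to 0.14, limma adjusted p = 0.545). Control rat 2 was the lowest of all 8 at this probe and the highest of the controls at the other.

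Slc6a9 is the glial transporter. Its probe at base 1836 had the largest difference of the 10 probes, with levels of -1.77, 0.18, -1.58 and -1.26 in control rats 1 to 4 and of -0.37, -0.17, 0.03 and -0.59 in stressed rats 1 to 4. Stressed rats lay above control rats 1, 3 and 4, and control rat 2 was above all of them. The means were -1.11 ± 0.88 (SD, n = 4) and -0.28 ± 0.27 (SD, n = 4), a difference of 0.83 ± 0.41 (SE) or 1.78-fold, with a 95% confidence interval of -0.11 to 1.77 on the log2 scale (limma adjusted p = 0.288, exact permutation p = 0.143). At base 2575 the levels were 1.12, 2.02, 1.20 and 1.36 in control rats and 1.45, 1.59, 1.77 and 1.37 in stressed rats. That difference was 0.12 ± 0.20 (SE, limma adjusted p = 0.753).

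Control rat 2 was at an end of the 4 controls at 10 of 10 probes (81.3% of all tested probes) and at an end of all 8 rats at 7 of 10 probes, 5 times the highest and 2 times the lowest (47.0% of all tested probes). Without it, 7 of 10 probes passed FDR below 0.1 and all 7 were higher in stressed rats. In the same fit 42.4% of all tested probes passed, 30.5% as higher and 11.9% as lower in stressed rats. These 7 were the probes of Glra1 and Glra3 and both probes of Slc6a9 and Gphn, together with the Slc6a5 probe at base 2445. The differences ranged from 0.22 at Gphn base 2419 (limma adjusted p = 0.0761) to 1.26 at Slc6a9 base 1836 (limma adjusted p = 0.00295). At the same 7 probes all 4 stressed rats lay above control rats 1, 3 and 4, and this held at 29.8% of all tested probes. The Slc6a5 probe at base 6877 gave -0.21 (limma adjusted p = 0.140), and Glra2 gave 0.03. A fit that weighted arrays by their agreement gave control rat 2 a weight of 0.107, and in it 7 of 10 probes passed, beside 50.6% of all tested probes. Without stressed rat 3, the rat with low Hoxa10, none of the 10 probes passed, beside 0.207% of all tested probes. The median difference of the 10 probes was then 0.25.

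The 5′ minus 3′ difference of the arrays was also taken as a covariate, and its part in the differences between groups was not tested. Among the controls, only control rat 2 (0.22) was not below all stressed rats (0.09 to 0.17), and the others lay at -0.31 to -0.18. Differences fitted with the covariate, here and below, therefore rest largely on control rat 2 against the stressed rats. With the covariate, the median difference of the 10 probes was -0.07 in place of 0.23. The Slc6a9 probe at base 1836 gave -0.18 and Glra3 gave -0.31. The probes of Glra1 (-0.15) and Gphn at base 2419 (-0.07) also lay on the other side of 0, as did Slc6a9 at base 2575 (-0.36, limma adjusted p = 0.116). Only the Glrb probe passed in this fit, with 0.94 ± 0.15 (SE, limma adjusted p = 0.0402), where 9.91% of all tested probes passed. With control rat 2 left out and the covariate kept, the Glrb difference was 0.11 ± 0.45 (SE, 95% confidence interval -0.999 to 1.22). No probe on the array passed in that fit, in which the standard errors of the 10 probes were between 0.28 and 0.79. That fit therefore cannot tell whether the Glrb difference, or the changes of sign at other probes, would hold without this rat.

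**Figure D2:**
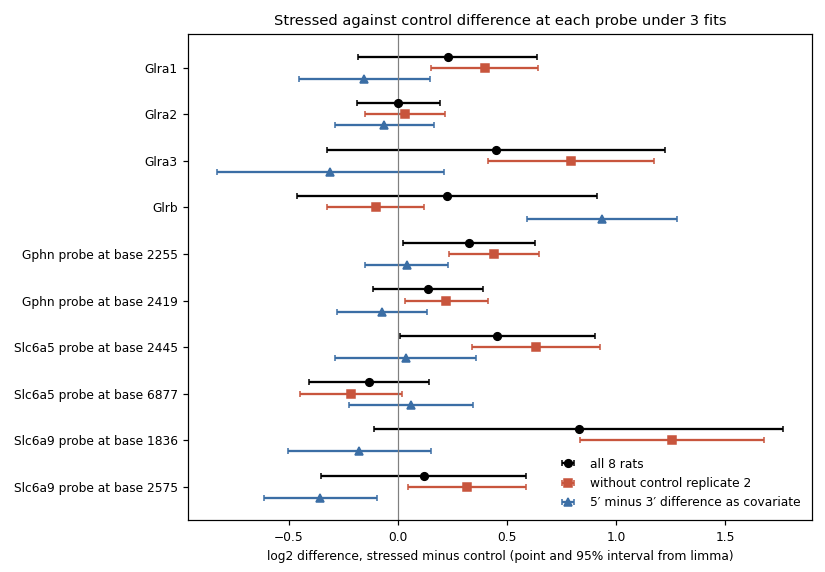
Log2 difference of stressed minus control rats (x axis) at each of the 10 probes with its 95% interval from limma, for all 8 rats, without control replicate 2, and with the arrays' 5′ minus 3′ difference as covariate. Without control replicate 2 the Slc6a9 probe at base 1836 lay at 1.26, and with the covariate it lay at -0.18.

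The 3 genes with a pair of probes allowed the comparison within a transcript. The gap in level from the 3′ to the 5′ probe, centred on its mean over all rats, was -0.71, 0.33, -0.60 and -0.44 for Slc6a9 in control rats 1 to 4 and 0.36, 0.41, 0.43 and 0.22 in stressed rats 1 to 4. Control rat 2 lay among the stressed rats. The groups differed by 0.71 between the Slc6a9 probes, which lie 739 bases apart (exact permutation p = 0.0571, Benjamini-Hochberg adjusted over 3 genes p = 0.0857). For Slc6a5, with probes 4432 bases apart, the values were -0.64, 0.49, -0.64 and -0.38 in control rats and 0.49, -0.12, 0.58 and 0.23 in stressed rats, a difference of 0.59 (exact permutation p = 0.143, also after adjustment). For Gphn, with probes 164 bases apart, the groups differed by 0.19 (exact permutation p = 0.0571, adjusted p = 0.0857). In all 3 genes control rats 1, 3 and 4 were the arrays with the lowest values, and these were also the arrays with the lowest 5′ minus 3′ difference over other transcripts.

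**Figure D3:**
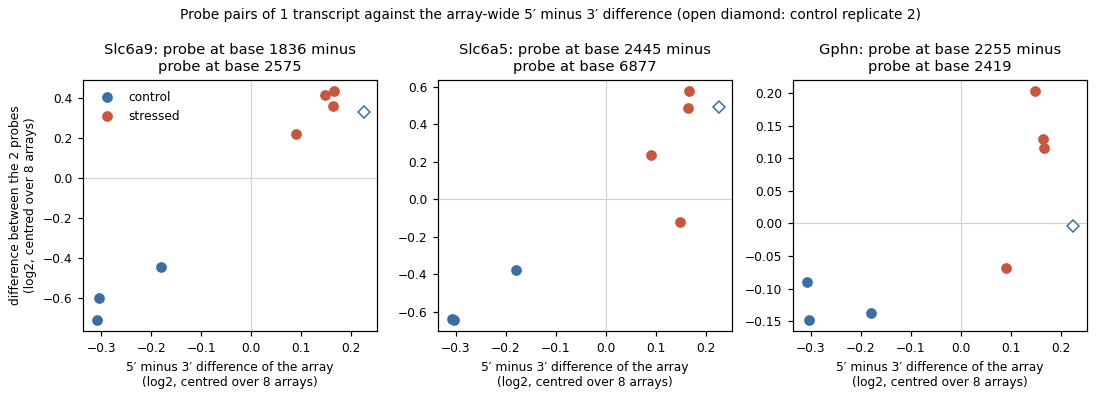
Difference between the 5′ and the 3′ probe of Slc6a9, Slc6a5 and Gphn (y axis, log2, centred over 8 arrays) against the 5′ minus 3′ difference of the same array over 1781 other transcripts (x axis, log2, centred). Points are rats, and control rat 2 (open diamond, 0.22 on the x axis) lies to the right with the stressed rats.

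Of 34 other genes of glycine signalling, 33 were on the array by name and 31 were tested, each by its brightest probe. None passed FDR below 0.1 (limma adjusted p of at least 0.103), 20 were higher and 11 lower in stressed rats on average, and the median difference was 0.07. At an unadjusted p under 0.05 there were 6 of 31 genes, 4 higher and 2 lower, beside 20.3% of all tested probes. Groups did not overlap in 5 of 31 genes, against 12.1% of all tested probes. These were Slc7a10 and Gldc, higher in all stressed rats, and Dynll2, Shmt1 and Shmt2, lower in all stressed rats. Without control rat 2, 13 of 31 genes passed, 10 of them higher in stressed rats, in the fit in which 42.4% of all tested probes passed, and with the 5′ minus 3′ covariate 3 of 31 passed, beside 9.91% of all tested probes. These 3 were Kpna4 at 0.52, Slc12a5 at -0.39 and Lhx1 at -0.60.

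The 2 serine hydroxymethyltransferases, which make glycine from serine, were the genes furthest below 0 on the list, neither past the threshold. Shmt2, the mitochondrial enzyme, had levels of -0.13, -0.19, 0.00 and 0.00 in control rats 1 to 4 and of -0.41, -0.38, -0.40 and -0.30 in stressed rats 1 to 4. Its difference was -0.29 ± 0.07 (SE, limma adjusted p = 0.103, exact permutation p = 0.0286). Shmt1, the cytosolic enzyme, had levels between -4.76 and -4.51 in control rats and between -5.19 and -4.87 in stressed rats, with a difference of -0.37 ± 0.10 (SE, limma adjusted p = 0.120). For both genes control rat 2 lay within the range of the other controls or just outside it. Without this rat the differences were -0.33 and -0.40 with limma adjusted p of 0.0075 and 0.0240, where 42.4% of all tested probes passed. With the 5′ minus 3′ covariate they were -0.21 and -0.29, with limma adjusted p of 0.154 and 0.216. Gldc, which encodes the glycine-degrading subunit of the glycine cleavage system, differed by 0.30 (limma adjusted p = 0.137).

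Nova1 and Slc7a10 were the genes furthest above 0 on the list, again not past the threshold. Nova1 encodes a neuronal splicing factor that acts on the Glra2 transcript, and its probe gave -5.01, -2.90, -4.76 and -4.71 in control rats 1 to 4 and -3.03, -3.23, -3.17 and -3.55 in stressed rats 1 to 4. The difference was 1.10 ± 0.44 (SE, limma adjusted p = 0.223), it was 1.58 without control rat 2 and 0.01 with the covariate. Slc7a10 encodes Asc-1, a carrier of small neutral amino acids that supplies glycine and D-serine. Its levels were 1.78, 2.32, 1.79 and 1.82 in control rats and 2.43, 2.34, 2.41 and 2.32 in stressed rats. The difference was 0.45 ± 0.13 (SE, limma adjusted p = 0.135), 0.58 without control rat 2 and 0.16 with the covariate.

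No gene of the other groups on the list passed either. Of the genes of receptor anchoring, Enah had a difference of 0.40 (limma adjusted p = 0.518), and Nlgn2, the adhesion protein of inhibitory synapses, was at 0.24 (limma adjusted p = 0.246). Slc32a1, which loads glycine and GABA into vesicles, differed by 0.07, and the 3 transcription factors of inhibitory neurons, Pax2, Lhx1 and Lhx5, lay between -0.19 and -0.05. The chloride carriers Slc12a5 and Slc12a2 differed by -0.18 and -0.07. A second Slc12a5 probe, at base 3287, differed by 0.68, and a second Slc12a2 probe, at base 3541, by 0.10.

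**Figure D4:**
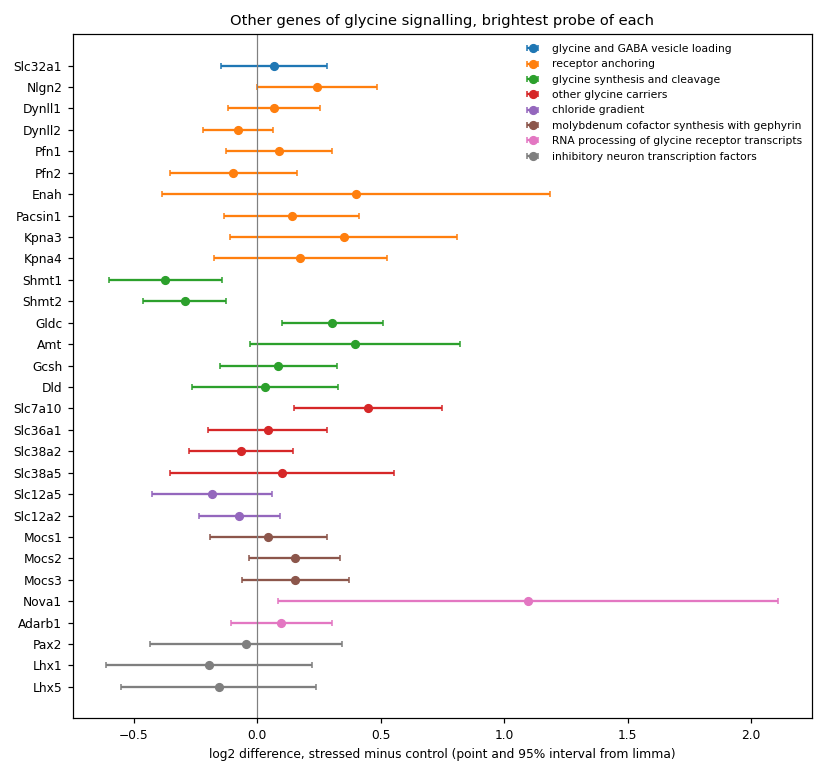
Log2 difference of stressed minus control rats (x axis) with its 95% interval from limma for 30 of the 31 other genes of glycine signalling that were tested, coloured by role. Shmt1 and Shmt2 lie at -0.37 and -0.29, Slc7a10 at 0.45 and Nova1 at 1.10, and none of those drawn passed FDR below 0.1.

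Markers of the cells that carry these genes were also measured. Summed levels are the log2 of summed unlogged signals, so that the brightest marker counts most. The summed level of 3 inhibitory neuron markers (Gad1, Gad2, Slc32a1) was between 4.53 and 4.77 in control rats and between 4.53 and 4.68 in stressed rats, and 0 of 3 passed. Singly, Gad1 differed by -0.18, Gad2 by -0.22 and Slc32a1, the brightest, by 0.07. The summed level of 6 astrocyte markers was between 5.68 and 5.94 in control rats and between 5.83 and 6.23 in stressed rats, and 0 of 6 passed. Singly, Gfap differed by 0.81, Slc1a2 by 0.42, Gja1 by 0.30 and Aqp4, the brightest, by 0.26. Slc1a3 and Aldh1l1 went the other way, at -0.20 and -0.08. Among 11 other marker lists, those of neurons (6 genes tested), oligodendrocytes (5) and endothelial cells (3) had 1 gene each past FDR below 0.1. These were Eno2 at -0.37, Mog at 0.90 and Pecam1 at 0.40 (limma adjusted p = 0.065, 0.072 and 0.093). In the same fit 3.74% of all tested probes passed. The summed level of 3 Schwann cell markers, which mark nerve roots, ran from -3.11 to 5.64 in control rats and from -2.84 to 3.65 in stressed rats. The part of these cells in the differences above was not tested.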

How the data were processed

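RNA of 8 lumbar cords, 4 per group by the labels, was hybridised to Agilent 1-colour arrays. The authors deposited, for each spot, the intensity processed by Agilent Feature Extraction 10.7.3.1, background-subtracted within each array. The deposited value table holds the same intensity and differed by at most 0.05. No normalization between arrays was found. The methods name dChip, and its normalization is not given in the sources used here.

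The 4259 control spots and outlier spots were left out. The log2 signal minus the 75th percentile of each array was averaged over the spots of a probe. A probe was tested when well above background (at least 0.5 of its spots) on at least 4 of 8 arrays, which left 23677 probes. Groups were compared with limma 3.58.1 (lmFit, eBayes), under R 4.3.3, two-sided, with Benjamini-Hochberg adjustment over all tested probes and a threshold of 0.1. Single values were compared with exact two-sided permutation tests over 70 choices of arrays. The fit was tested on simulated data. The 5′ minus 3′ difference used probes at least 300 bases apart and no member. The number of arrays limits the precision. The limma p values set the difference between groups against the spread within groups, which with 1 array per rat holds that of rats and arrays alike.

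The text names every member probe, the 2 largest rises and falls of the pathway list, and the 3 genes most like Glra1, Glrb, Slc6a5 and Slc6a9. Nlgn2, Enah, Kpna4, Gldc, Dynll2, Slc32a1, the transcription factors, the chloride carriers and the single markers were named after their values were seen. Members and lists were chosen with earlier results of these data known. Alternatives were normexp with an offset of 50, quantile normalization, no filter, a filter on all 8 arrays, the deposited values, array weights, a variance trend, the 5′ minus 3′ covariate, a replicate block, a single probe per gene symbol, and omission of each array. The covariate with control rat 2 left out was added after seeing the data. Exons, UTRs and the miRNA arrays were not analysed here, and 1 gene of the pathway list is counted but not reported here.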

Additional observations from a re-analysis of the deposited data

Results flagged for a closer look

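In 3 of 20 groups of 4 rats, 1 rat lay far from the other 3, where chance alone gives about 1 group in 20 for independent groups. The 20 groups are 10 probes on the same rats and are not independent, and over all tested probes 13.5% of control groups and 5.09% of stressed groups had such a rat. The measure is the gap to the nearest rat as a share of the group's range. At the Glra3 probe control rat 2 was at -3.82 with the next control at -5.12, a share of 0.907. At the Glrb probe control rat 2 was at -2.64 with the next control at -1.37, a share of 0.949. At the Slc6a5 probe at base 6877 stressed rat 2 was at 2.32 with the next stressed rat at 2.07, a share of 0.861.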

How the results depend on the processing

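With all 8 rats, 885 probes passed FDR below 0.1. The count was 229 with normexp, 3010 with no filter on dim probes, 11983 with array weights, 2346 with the 5′ minus 3′ covariate and 0 with that covariate and control rat 2 left out. Leaving out 1 rat at a time gave 0 to 10038, the highest without control rat 2 and at most 72 without any other rat. The replicate block gave 0 probes in all and 0 of the 10 probes, with a median difference of 0.23. Rats of the same number correlated at 0.10, 0.12, -0.09 and 0.31 in their deviations, only rat 4 matched its own number best, and the numbers were not taken as pairs. Of the 10 probes, 7 passed with array weights (50.6% of all tested probes) and 1 with the covariate, and leaving out 1 rat gave 0 to 7. The median difference of 0.23 turned to -0.0668 with the covariate and to -0.0626 with control rat 2 also left out. Of the pathway list 1 gene, Shmt2, passed with quantile normalization (4.98% of all tested probes), with the filter on all 8 arrays (4.9%) and with 1 probe per gene symbol (4.51%). With a variance trend 2 passed, Shmt2 and Slc7a10 (5.47%), with no filter 3, these and Shmt1 (9.92%), with the covariate 3 (9.91%), with array weights 13 (50.6%), and with 1 rat left out 0 to 13.

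Glra2 ran from -0.0325 to 0.0569 with 1 rat left out. It lay below 0 without control rat 1 (-0.01), control rat 3 (-0.02) and stressed rats 1 (-0.01), 3 (-0.0034) and 4 (-0.0325), with array weights (-0.0013) and with the covariate (-0.0625). Glrb was -0.0449 with array weights and -0.10 without control rat 2, and with 1 rat left out it ran from there to 0.34. With the covariate Glra1 was -0.15, Glra3 -0.31, Gphn at base 2419 -0.0711, Slc6a5 at base 6877 0.0616 and Slc6a9 -0.18 and -0.36. With control rat 2 also left out, Glra2 was -0.0496, Gphn -0.33 and -0.31, Slc6a5 -0.0756 and 0.0326, and Slc6a9 -0.38 and -0.54. The causes were not tested. A slide block could not be fitted, since all arrays lay on 1 slide.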

Other observations

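The genes whose levels ran most like those of 4 members across the 8 rats were found by the mean absolute difference of log2 values centred on each probe's mean. Nearest to Glra1 were Ubtf (0.0489), Syt6 (0.0553) and Dym (0.0557), and nearest to Glrb were Cdo1 (0.0525), Trappc2 (0.0529) and Cdkn2d (0.0608). For the Slc6a5 probe at base 6877 they were Ntng1 (0.0290), Rbm17 (0.0497) and Vps4b (0.0508), and for the Slc6a9 probe at base 2575 they were Cdc42ep1 (0.0238), Scly (0.0437) and Sec3l1 (0.0475). None of these 12 genes passed FDR below 0.1 between stressed and control rats (limma adjusted p between 0.350 and 0.917).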
